A study of Schizosaccharomyces pombe with 6 samples.

Results

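The mRNAs described here are 8 transcripts of the meiotic programme of fission yeast that carry determinant of selective removal (DSR) elements and are degraded in growing cells through the RNA-binding protein Mmi1. They were chosen by gene identifier, and 8 of 8 have a row among the 6345 genes of the deposited table: *mei4* (SPBC32H8.11), *ssm4* (SPAC27D7.13c), *rec8* (SPBC29A10.14), *spo5* (SPBC29A10.02), *crs1* (SPBC2G2.09c), *mcp5* (SPBC216.02, also named *num1*), *mcp7* (SPAC13A11.03) and *rec10* (SPAC25G10.04c). The table summarises RNA-seq of 3 *mkt1Δ* libraries (strain EHB2196, in which NatR replaces *mkt1*) and 3 wild-type libraries (strain EHB7), from cultures in exponential growth in YES medium at 32°C. Both strains are h+ and share ade6-210, leu1-32, ura4-D18 and an *ade6+* reporter inserted in the outer repeat of centromere 1, so the wild-type strain is wild-type for *mkt1* only. Fission yeast normally enters meiosis as a diploid that has mated and been starved, whereas these cultures were of a single mating type in rich medium. The study examined Mkt1, a post-transcriptional regulator, in silencing by RNA interference and in the establishment of heterochromatin. Its RNA-seq looked for expression changes in cells without Mkt1. For the transcripts described here the question is whether their removal needs Mkt1.

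Meiotic genes must be switched on in sequence when cells mate and starve, and their transcripts are harmful or wasteful in cells that divide by mitosis. Mmi1 carries a YTH domain that recognises the hexamer UNAAAC, which is repeated in DSR elements. With its partner Erh1 it hands the transcript to the MTREC complex (Red1 and the helicase Mtl1), to polyadenylation by Pla1, to the poly(A)-binding protein Pab2 and to the nuclear exosome subunit Rrp6. In meiosis the RNA-binding protein Mei2 and the non-coding RNA *sme2* sequester Mmi1, and the transcripts accumulate. Because such transcripts are polyadenylated before they are destroyed, a poly(A)-selected library of growing cells can still hold some of them.

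What the table allows is a level for each mRNA pooled over both strains, the authors' mean log2 CPM (read counts scaled to library size, on the log2 scale) over the 6 libraries. Levels in separate libraries or strains were not analysed here, and the authors' fold changes and p-values for the strains were not used. So no change between *mkt1Δ* and wild-type cells was tested. For the same reason no level below has an SD or a replicate number, the depth of each library is unknown, and an order of neighbouring levels could not be set against the spread between libraries. The pooled level of *mkt1* itself (SPAC139.01c) was 6.83 in log2 CPM and cannot check the labels, since it mixes the deleted and the intact strain.

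The recognition hexamer was counted in the spliced RefSeq mRNA models (ASM294v3) as TNAAAC on the sense strand, the strand that Mmi1 can read; copies of this hexamer cannot overlap. DSR elements are part of how these genes were chosen, so the counts describe the transcripts and test nothing. The 8 mRNAs held 8 to 19 copies each (median 12), against a median of 3 in the 5042 protein-coding genes with a model, 89.6% of which hold at least 1 copy. Per kb of mRNA the members held 4.35 to 8.03 copies (median 6.65), against a median of 1.64 in protein-coding genes. All 8 lay above the 95th percentile of protein-coding genes, at 3.90 copies per kb. On the opposite strand the same hexamer occurred at 2.0 to 4.51 copies per kb of the members (median 3.03), against a median of 1.86 in protein-coding genes.

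The stretches below show how the copies cluster. Each is the densest window of 150 bases in the coding sequence of the RefSeq model, 5′ to 3′, with the hexamers in capitals. *mei4* encodes the forkhead transcription factor of middle meiosis, and its window spans bases 685 to 834 of the 1554-base coding sequence, counted from the start codon, with 5 copies (chromosome II, forward strand). *ssm4*, which encodes a p150-Glued dynactin subunit, has 4 copies in bases 1418 to 1567 of 2013 (chromosome I, reverse strand). *rec8*, which encodes the meiotic cohesin subunit, has 4 copies in bases 1052 to 1201 of 1686 (chromosome II, forward strand). *rec10*, a linear element protein and the member with the lowest density over its whole mRNA, has 3 copies in bases 69 to 218 of 2376 (chromosome I, reverse strand).
mei4: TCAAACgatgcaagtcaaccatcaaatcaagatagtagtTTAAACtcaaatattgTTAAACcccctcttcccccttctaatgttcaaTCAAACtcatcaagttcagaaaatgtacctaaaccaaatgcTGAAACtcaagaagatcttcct
ssm4: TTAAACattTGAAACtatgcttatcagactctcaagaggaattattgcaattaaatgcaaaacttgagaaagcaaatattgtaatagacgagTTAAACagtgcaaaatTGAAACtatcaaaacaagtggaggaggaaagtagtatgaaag
rec8: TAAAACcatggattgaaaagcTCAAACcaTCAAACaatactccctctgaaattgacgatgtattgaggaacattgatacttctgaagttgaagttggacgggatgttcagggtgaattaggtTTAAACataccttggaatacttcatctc
rec10: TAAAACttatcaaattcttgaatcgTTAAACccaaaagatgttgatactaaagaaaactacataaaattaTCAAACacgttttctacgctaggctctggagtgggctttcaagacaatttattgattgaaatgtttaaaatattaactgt

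In *spo5*, which encodes a meiotic RNA-binding protein, most copies lie outside the reading frame: of 14 copies, 6 are in the coding sequence and 7 in the 227 bases after the stop codon. The site shown is bases 76 to 105 after the stop codon and holds 3 copies, a pair of them side by side.
spo5: TCAAACTTAAACcaacaTAAAACctgttag

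The remaining members differ in where their copies sit. *mcp5*, which encodes the cortical anchor of dynein, has 19 copies, 18 of them in its coding sequence. *mcp7*, which encodes a coiled-coil protein of meiotic recombination, has 10, of which 5 are coding, in a model whose 3′ region of 701 bases is longer than its coding sequence of 633 bases. *crs1*, which encodes a meiotic cyclin, has 8 copies, 7 of them coding. *rec8* and *spo5* have the densest windows anywhere in the mRNA, with 6 copies in 150 bases. The 0.0397% of protein-coding genes with as many in such a window are *rec8* and *spo5* themselves. The next shares count the members too. *mei4* has 5, which 0.179% of protein-coding genes reach. *rec10* and *crs1* have 3, which 7.18% reach. Of the 8 members 4 have at least 1 intron (*rec8* and *crs1* 4 each, *spo5* 2 and *mcp7* 1), against 48.7% of protein-coding genes.

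Every member was expressed below the median protein-coding gene. Their median level was 3.75 in log2 CPM, against 6.20 for protein-coding genes and 5.79 for the whole table. Longer mRNAs collect more reads, so levels are compared between genes as log2 CPM per kb of mRNA. On that scale the members' median was 2.65 against 5.33 for protein-coding genes, a gap of 2.67 or 6.38-fold. Of the 8 members, 6 lay below the 10th percentile of protein-coding genes and 7 below the 25th percentile. Summed, the 8 mRNAs made up 154 CPM, or 0.0154% of the table's total.

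The order among the members depends on how length enters. Unscaled, *rec10* was the highest and *mcp5* (4.91) stood just above *mcp7* (4.84) in log2 CPM, and per kb of coding sequence *mcp7* exceeded *rec10* by 2.15-fold. Per kb of mRNA, the scale used below, the highest level was that of *mcp7* at 4.35 per kb, with 25.6% of protein-coding genes below it. *rec10* followed closely at 5.64 in log2 CPM and 4.31 per kb, with 24.6% of protein-coding genes below it. Both stood about as far below the median protein-coding gene, by 1.97-fold for *mcp7* and 2.03-fold for *rec10*.

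Lower came the genes of nuclear movement. *mcp5* had 4.91 in log2 CPM and 3.18 per kb, and *ssm4* had 3.97 in log2 CPM and 2.93 per kb. These are 4.42-fold and 5.28-fold below the median protein-coding gene, with 9.04% and 7.50% of protein-coding genes lower. Dynein, its anchor at the cortex and dynactin together pull the horsetail nucleus back and forth in meiotic prophase.

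The regulators and the cohesin subunit were lower again. *mei4* had 3.53 in log2 CPM and 2.38 per kb, 7.71-fold below the median protein-coding gene. *rec8* had 2.96 in log2 CPM and 2.06 per kb, and *spo5* had 2.98 and 1.98, so both mRNAs were nearly level, 9.67-fold and 10.2-fold below the median gene. *crs1* was the lowest at 1.07 in log2 CPM and 1.05 per kb, 19.3-fold below the median protein-coding gene, with 2.74% of protein-coding genes lower. From *mcp7* to *crs1* the levels per kb span 9.83-fold.

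**Figure D1:**
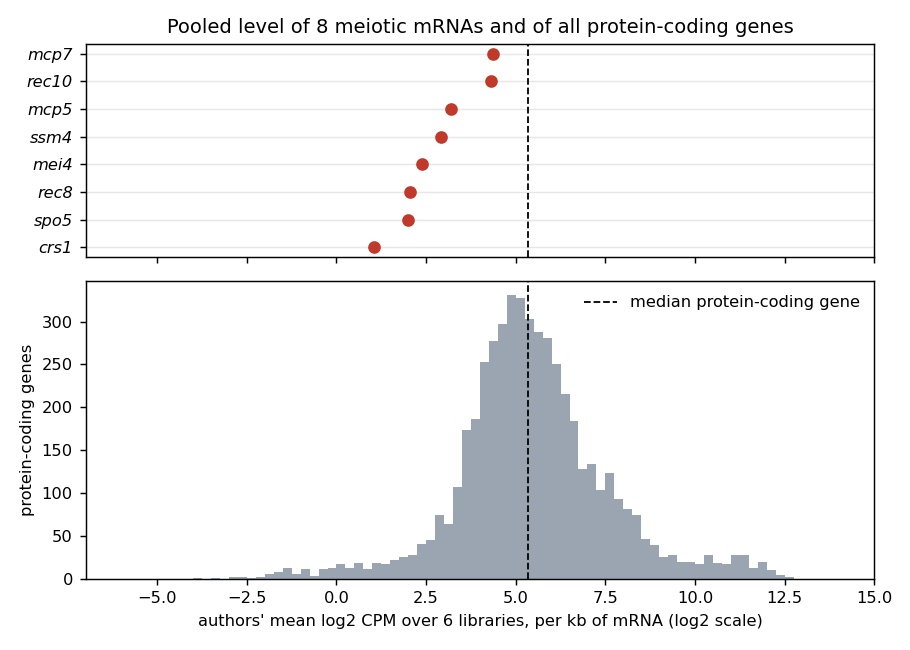
Pooled level of the 8 mRNAs (upper panel, 1 point a gene) above the distribution of 5042 protein-coding genes (lower panel, number of genes), both as the authors' mean log2 CPM over 6 libraries per kb of mRNA; the dashed line is the median protein-coding gene at 5.33. All 8 points lie left of the line, from *mcp7* at 4.35 to *crs1* at 1.05.

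**Figure D2:**
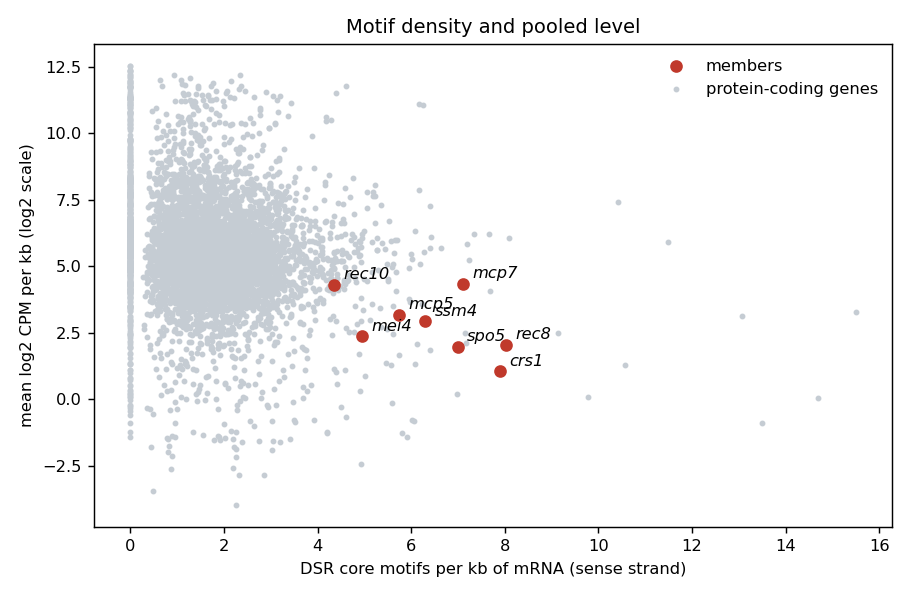
Copies of the hexamer TNAAAC per kb of mRNA (x axis) against pooled log2 CPM per kb (y axis) for the 8 members and for protein-coding genes. The members sit to the right, at 4.35 to 8.03 copies per kb, and low on the level axis.

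Motif density and level did not follow a single order among the 8. *rec10* had the lowest density (4.35 copies per kb) and the second highest level per kb, and *rec8* and *crs1* had the highest densities (8.03 and 7.90 copies per kb) and levels of 2.06 and 1.05 per kb. *mcp7* goes the other way, with 7.12 copies per kb and the highest level per kb. With 8 genes in a single pooled measurement these values are a description only.

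Although the strains were not compared, the pooled level limits how abundant each mRNA can have been in either strain. With 3 libraries of each strain and libraries of equal depth, the mean over 1 strain can be at most 2 times the pooled mean, reached only if the other strain had none. This limit is approximate, because edgeR's mean is fitted, weighs libraries by their depth and includes a small added count. It came to 4.21 CPM for *crs1*, 15.5 CPM for *rec8*, 15.8 CPM for *spo5* and 23.1 CPM for *mei4*. For *ssm4*, *mcp7*, *mcp5* and *rec10* it was 31.4, 57.4, 60.1 and 100.01 CPM. Per kb of mRNA, 7 of the 8 members would stay below the median protein-coding gene even at that limit. The exception, *mcp7*, would reach 5.35 in log2 CPM per kb against the median of 5.33, and *rec10* would reach 5.31. The limit says nothing of smaller differences: on these values alone, an mRNA could differ several-fold between *mkt1Δ* and wild-type cells within it. The paper measured *mei4* and *ssm4* transcripts separately by RT-qPCR and reports that their silencing did not need Mkt1. The other members were not part of that measurement. From its RNA-seq the paper reports that very few genes had altered expression in *mkt1Δ* cells. Its list of genes changed by 2-fold or more names none of the 8 members. A gene can be absent from that list and still differ between the strains.

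**Figure D3:**
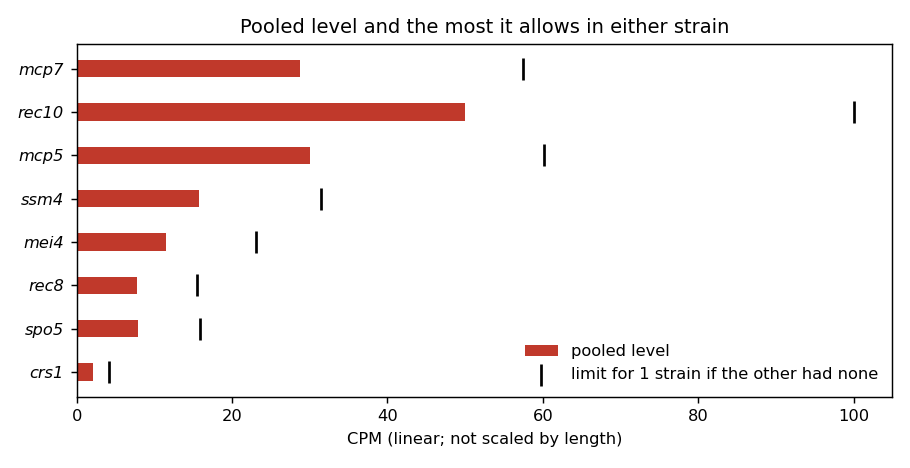
Pooled level of each member in CPM on a linear axis (bars, from 0, not scaled by length) and 2 times that level (ticks), the most that either strain could have had if the other had none. The bars run from 2.10 CPM for *crs1* to 50.01 CPM for *rec10*.

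Several members share their locus with other genes, and the strand setting of the read counting is not given in the sources used here, so reads in the shared bases cannot be assigned with certainty. *mcp5* lies wholly within SPNCRNA.1397, an RNA of the opposite strand whose pooled level was 6.34 in log2 CPM, above the 4.91 of *mcp5*. *mcp7* shares 39.8% of its length with *ubp8* on the opposite strand (5.63 in log2 CPM), and *crs1* shares 37.2% with *ade9* on the opposite strand (6.71 in log2 CPM). *mei4* shares 5.18% with *cdk9* on the same strand (7.05 in log2 CPM), *spo5* shares 6.03% with *pcf1* and *rec10* 1.42% with *zip1*, both on the opposite strand. The part of these neighbours in the members' levels was not tested. For *rec8* and *ssm4* the annotation has overlapping RNAs of the opposite strand only, and none of these has a row in the table. Other opposite-strand RNAs without a row overlap *mei4* (66.7% by SPNCRNA.5202 and 9.87% by SPNCRNA.5201), *mcp5* (16.8%), *rec10* (14.2%) and *mcp7* (13.4%).

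Set beside genes of mitotic cells with a like job or, for *ssm4*, only a like domain, *crs1*, *rec8*, *mei4* and *ssm4* were lower in each of 9 pairs. *crs1* was 5.74 lower in log2 CPM per kb than *cdc13*, the main mitotic B-type cyclin, 4.33 lower than *cig1*, 2.58 lower than *puc1* and 2.06 lower than *cig2*, which are cyclins of the mitotic cycle. *rec8* (2.06 per kb) stood 3.76-fold below *rad21* (3.97 per kb), the cohesin subunit it replaces in meiosis. *mei4* (2.38 per kb) stood below the 3 forkhead genes of growing cells, by 2.96-fold for *fkh2*, 5.44-fold for *fhl1* and 6.73-fold for *sep1*. *ssm4* was 6.37-fold below *tip1*, which encodes a microtubule tip protein with a like domain. *mcp5* was set beside the motor it anchors, and was 24.5-fold below the dynein light chain gene *dlc1* and 2.10-fold above *dhc1*, the dynein heavy chain gene, per kb. Both values rest on the scaling: unscaled, *mcp5* was 4.36-fold below *dlc1*, and it was lower than *dhc1*, with 4.91 against 5.77 in log2 CPM. Unscaled, *rec8* was 6.57-fold below *rad21*, and *crs1* was 14.7-fold to 148-fold below the 4 cyclins.

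**Figure D4:**
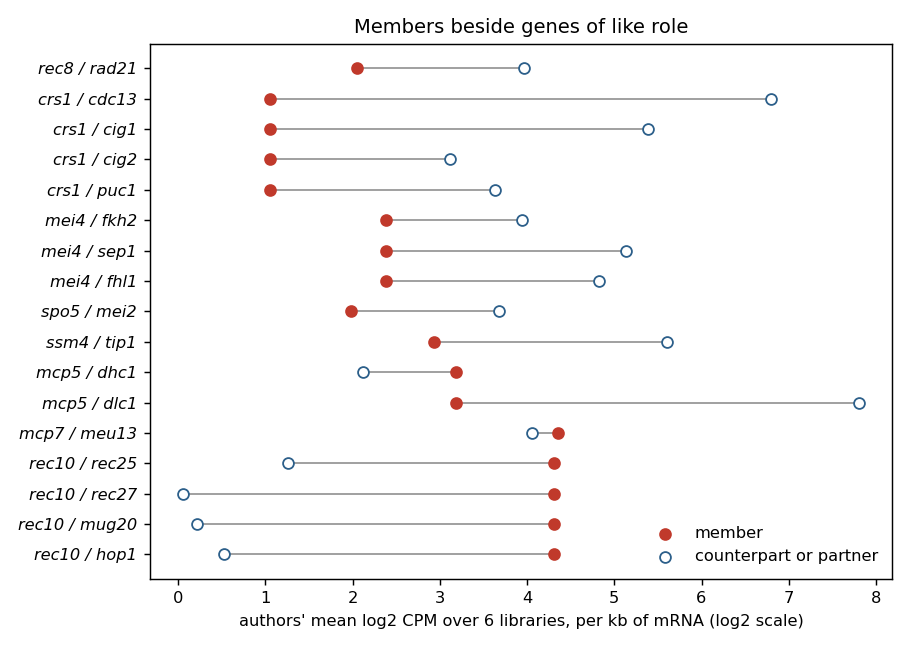
Level of each member (filled points) and of a gene of like role or a partner (open points), 1 pair a row, as pooled log2 CPM per kb of mRNA. The member lies left of its counterpart in 11 of 17 pairs, and the 4 rows of *rec10* show it far to the right of its partners.

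Against partners that are themselves meiotic, the picture was mixed. *rec10* builds the linear elements of meiotic chromosomes, and at 4.31 per kb it exceeded the other linear element genes *rec25* (1.25), *hop1* (0.53), *mug20* (0.21) and *rec27* (0.06), by 8.29-fold to 19.0-fold, or 8.03-fold to 87.9-fold unscaled. *mcp7* (4.35 per kb) and *meu13* (4.06 per kb), which encode the Mnd1 and Hop2 partners of strand exchange, differed by 0.29 on the log2 scale per kb (1.22-fold), but by 2.64-fold unscaled, with *mcp7* higher on both scales. *spo5* (1.98 per kb) was 3.25-fold below *mei2* (3.68 per kb), the RNA-binding protein that inactivates Mmi1 in meiosis, and 6.57-fold below it unscaled. With a single pooled value per gene, none of these differences has a test. A high hexamer density was not particular to the members. *rec27*, *meu13* and *mug20* held 14.7, 7.68 and 6.97 copies per kb, above the 95th percentile of 3.90. *rec25* and *hop1*, at 3.45 and 2.52, lay below it.

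Other meiotic genes were mostly low as well. Of 5 regulators of meiotic entry with a length 0 lay above the median protein-coding gene, with *ste11* at 4.82, *pat1* at 4.03, *mei2* at 3.68, *rep1* at 2.45 and *mei3* at -0.77 per kb. Of 15 genes of recombination and linear elements, 0 lay above the median protein-coding gene, and their median was 1.02 per kb against 2.65 for the 8 members. The lowest of them were *mde2* at -1.43 and *rec15* at -0.79 per kb, and the highest were *rec14* at 4.58 and *rec6* at 4.41. Of 11 genes of later meiosis and sporulation 3 lay above the median per kb (*psy1*, *spo14* and *isp3*). The list ran from -1.45 for *mfr1* to 7.21 for *psy1*, a syntaxin that growing cells also use. Unscaled, *isp3* (5.91 in log2 CPM) lay below the median protein-coding gene (6.20), and *ste11* (6.83) lay above it. So a low pooled level is not particular to the members in these data.

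Among 10 genes listed as candidate Mmi1 targets, 8 lay at or below the median protein-coding gene, with a median of 2.58 per kb. Of these, *mek1* and *spn6* were already counted in the lists above. *mug9* and *mug8* had 13.1 and 6.01 hexamers per kb, and their levels were 3.14 and 5.29 per kb. The highest of this list, *arg1* at 8.96 per kb, is an arginine synthesis gene with 0 copies of the hexamer in its model.

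Of the 13 listed genes whose products remove these transcripts, 8 lay above the median protein-coding gene, and their median was 5.83 per kb. They ran from *mtl1* at 4.41 to *erh1* at 7.57 per kb. Between them were *mmi1* at 5.15, *red1* at 5.74, *pab2* at 7.36, *pla1* at 5.84, *dis3* at 4.71 and *rrp6* at 4.83. The top place of *erh1* rests on the scaling, since its model has only 315 bases. Unscaled, *erh1* was the lowest of the 13, at 5.90 in log2 CPM against 6.20 for the median protein-coding gene. The antagonists of Mmi1 in meiosis were also in the table, *mei2* at 3.68 per kb and *sme2* (SPNCRNA.103) at 3.96 in log2 CPM. No length was used for *sme2*, because no RefSeq model was matched to its identifier.

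Genes that mark mating and meiosis, all of them already counted in the lists of meiotic genes above, covered a wide range. Of 9 such genes with a level, 8 lay below the median protein-coding gene: *mfr1* at -1.45, *spo4* at -1.20, *mei3* at -0.77, *dmc1* at -0.35, *rec12* at 2.40, *mei2* at 3.68, *ste11* at 4.82 and *mes1* at 5.09 per kb. The exception was *isp3*, a spore coat gene, at 5.68 per kb. Unscaled, *ste11* and not *isp3* was the gene above the median.

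**Figure D5:**
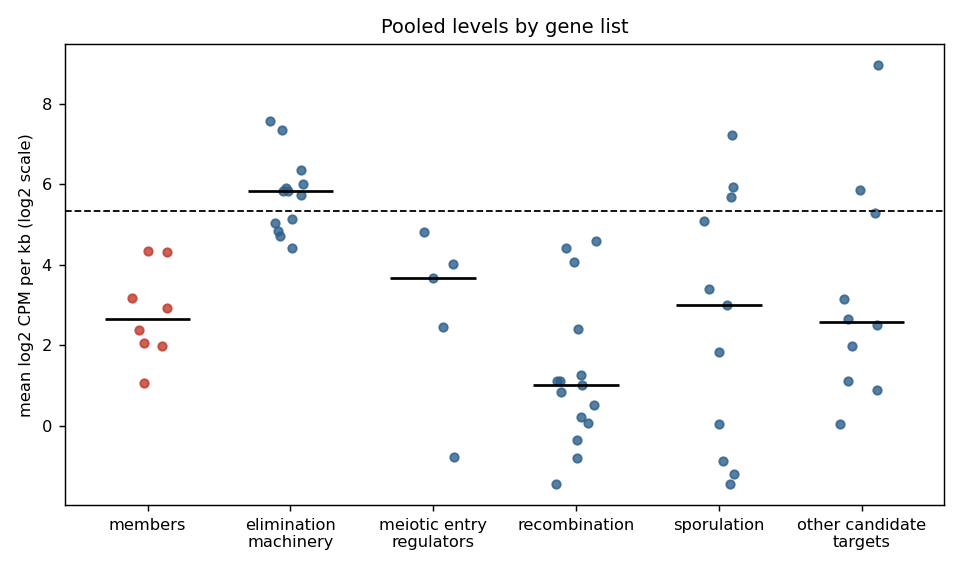
Pooled log2 CPM per kb of each gene (points) in the 8 members and in 5 lists, with the list median (bar) and the median protein-coding gene (dashed line, 5.33). The members' median is 2.65, that of the elimination machinery, *mei2* and *sme2* left out, 5.83 and that of the recombination genes 1.02.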

How the data were processed

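RNA of 3 *mkt1Δ* and 3 wild-type cultures was sequenced by the authors from stranded, poly(A)-selected, paired-end libraries. Per the labels, reads were trimmed with cutadapt 1.8.3, aligned with STAR 2.5 to ASM294v2, counted with HTSeq 0.6.1 and analysed with edgeR 3.12.0; genes with few reads had been discarded. The deposited table gives the authors' mean log2 CPM per gene over all libraries, which is used here. Its other columns hold the authors' fold changes and p-values for the strains and were not used. It has 0 columns of single libraries, so the count model planned for this comparison was not fitted, and depth and precision per library are unknown.

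Names and spliced mRNA models came from RefSeq (ASM294v3, another build, so no coordinates are given); 6299 of 6345 identifiers matched. Models were read by identifier, and the reading frames of the 8 members were checked as intact. In 165 of 5042 protein-coding models no untranslated region is annotated, and those of *crs1* and *ssm4* end at the stop codon. Levels per kb are log2 CPM minus log2 of mRNA length over 1000 bases. The hexamer count was tested on simulated data. The members and lists were chosen with earlier results of these data known. All 8 members are named, with genes from the lists where a comparison turned on them; *mei2* and *sme2*, first listed with the elimination machinery, are given apart. Of the lists, *mat1-Mc* and *mat1-Pc* were not matched to a row. Python 3.11.15, numpy 2.4.6, pandas 2.3.3 and matplotlib 3.10.9 were used.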

Additional observations from a re-analysis of the deposited data

How the results depend on the processing

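No member lay above the median protein-coding gene (0 of 8), and the count was also 0 without length scaling, against all genes of the table, against genes with a mean log2 CPM above 0, and with coding length in place of mRNA length. The members' median of 3.75 in log2 CPM was 3.74 as a mean, and 2.65 per kb. Of 17 differences from counterparts or partners, 16 kept their sign without length scaling, and that of *mcp5* minus *dhc1* turned to -0.86. No paired analysis was possible because the table holds 1 pooled value per gene. For the same reason the alternatives that need counts (other size factors, a filter on counts, leaving out a library) were not run. Depth limits the lowest members most, but it is unknown here. RefSeq models and the authors' annotation may differ in length. Of the genes that remove these transcripts, 8 lay above the median protein-coding gene, and 8 also with *mei2* counted in, as first listed. The median level of that first list was 5.79 per kb. Setting *mei2* and *sme2* apart was chosen after seeing the data.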
